A study of Mus musculus with 12 samples.

Results

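Cells sorted as CD45+/CD11b+/Ly6G- from mouse paws were checked for RNA of cell types that the gate should leave out. The check used 36 marker genes, among the 55401 genes of the 2 deposited count tables, found by matching Ensembl gene IDs to mouse symbols. The markers stood for keratinocytes (8 genes), fibroblasts (8), blood vessels (6), red blood cells (4), mast cells (4) and lymphocytes (6). At least 1 read was present for 35 of the 36, and Cd79a, a part of the B cell receptor, had 0 reads in every library. In all 12 libraries 13 members were read, and 25 members had at least 100 reads over the 12 libraries.

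Paw skin is built of layered keratinocytes over a dermis of fibroblasts, vessels and nerves, with resident mast cells and lymphocytes. Myeloid cells in this tissue carry the common leukocyte antigen CD45 (Ptprc) and the integrin CD11b (Itgam). Keratinocytes, fibroblasts and vessel cells carry neither, mature red cells lack CD45, and Ly6G marks neutrophils. Transcripts such as keratins or collagens in a sorted library are therefore read as a measure of RNA from outside the gate. Some markers are less strict: activated macrophages can express Sparc, Gzmb is made by plasmacytoid dendritic cells and basophils as well as cytotoxic lymphocytes, Cd2 by dendritic cells, and natural killer cells can carry CD11b.

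The cells came from hind paws 4 h after saline or 1% carrageenan, a seaweed polysaccharide that sets off acute inflammation. Flox stands for FABP5Flox mice. Mice of the genotype FABP5Flox/LysM-Cre, called cKO, also carried a Cre under control of the lysozyme M gene, which is active in myeloid cells. The floxed Fabp5 allele was thus common to all 4 groups, and no group carried the Cre without it. Each group held 3 libraries (n = 3), each a pool of 3 or 4 mice named here by its mouse numbers: 1-3, 4-7 and 8-10 for Flox and 1-4, 5-8 and 9-12 for cKO. Values below follow that order of pools. The spread between pools is the only replicate error, and animals within a pool cannot be separated.

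Reads assigned to genes ranged from 111925 to 2987015, a 26.7-fold range, and the cKO libraries were deeper than the Flox libraries on the whole. A count of 0 allows up to 3 reads, which is 26.8 reads per 1000000 gene reads (rpm) in the shallowest library, Flox saline 1-3, and 1.00 rpm in the deepest, cKO saline 5-8. These floors cover counting error only. Flox saline 1-3 stood apart from the other 11 libraries on the first principal component, and cKO carrageenan 9-12 lay apart from the other cKO carrageenan libraries on the second. The gate itself was visible in every library. Ptprc was 429, 319 and 417 in Flox saline, 638, 413 and 614 in Flox carrageenan, 533, 643 and 347 in cKO saline and 691, 768 and 661 in cKO carrageenan rpm. Itgam was 608, 469 and 458 in Flox saline, 488, 445 and 429.5 in Flox carrageenan, 482, 432 and 559 in cKO saline and 382, 428 and 433 in cKO carrageenan rpm. Ly6g had 4 reads in all, found in 3 carrageenan libraries. The summed level of 12 myeloid genes, such as Lyz2 and Ctss, ranged from 15773 to 21363 rpm.

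The 4 globin genes form 2 pairs of near copies, alpha and beta, and the sequences around the coding differences within each pair are shown because the counting could split reads between copies. Hba-a1 and Hba-a2 differ at 1 of 429 coding bases (C381T), and Hbb-bs and Hbb-bt at 1 of 444 (C417T), with positions counted from 1 at the first base of the start codon. The stretches are from GENCODE vM21 transcripts on GRCm38, run 5′ to 3′ on the coding strand, and have the differing base in capitals.
Hba-a1 (chr11:32284313-32284372, plus strand): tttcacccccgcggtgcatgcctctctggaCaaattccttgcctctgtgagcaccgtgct
Hba-a2 (chr11:32297130-32297189, plus strand): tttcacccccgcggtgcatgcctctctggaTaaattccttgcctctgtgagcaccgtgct
Hbb-bs (chr7:103826665-103826724, minus strand): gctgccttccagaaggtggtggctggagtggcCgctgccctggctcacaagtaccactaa
Hbb-bt (chr7:103812656-103812715, minus strand): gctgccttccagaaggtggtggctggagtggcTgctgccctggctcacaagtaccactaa
The alpha pair is 99.8% identical over the coding bases and the beta pair 99.8%. Past the stop codon, the alpha tails of 74 and 90 bases share 74 identical bases. The beta tails of 131 and 132 bases share 95, so the beta copies differ more there. Values of single copies are uncertain where reads fall on identical bases, and the sum of the 4 does not depend on a split within a pair. The read counter is not named in the sources used here. Reads matching both copies may have been left out, which would make the sum too low.

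Together the 36 members took at most 0.427% of the gene reads of a library. The share was 0.0688, 0.147 and 0.202 in Flox saline, 0.308, 0.203 and 0.325 in Flox carrageenan, 0.245, 0.193 and 0.427 in cKO saline and 0.245, 0.305 and 0.277 in cKO carrageenan, all in percent. It was lowest in Flox saline 1-3, where 77 reads fell on members and 22 of the 36 had no read. It was highest in cKO saline 9-12, with 4897 reads. The Flox carrageenan libraries lay above the Flox saline libraries, while the cKO treatment groups overlapped. Keratinocyte and fibroblast genes held 20139 and 14134 of the 36725 member reads, so skin epithelium and connective tissue made up most of the signal. Vessel genes had 850 reads, globins 787, lymphocyte genes 531 and mast cell genes 284. A share of reads is not a share of cells, and in these bulk libraries fewer cells of a type and less RNA per cell cannot be told apart.

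**Figure D1:**
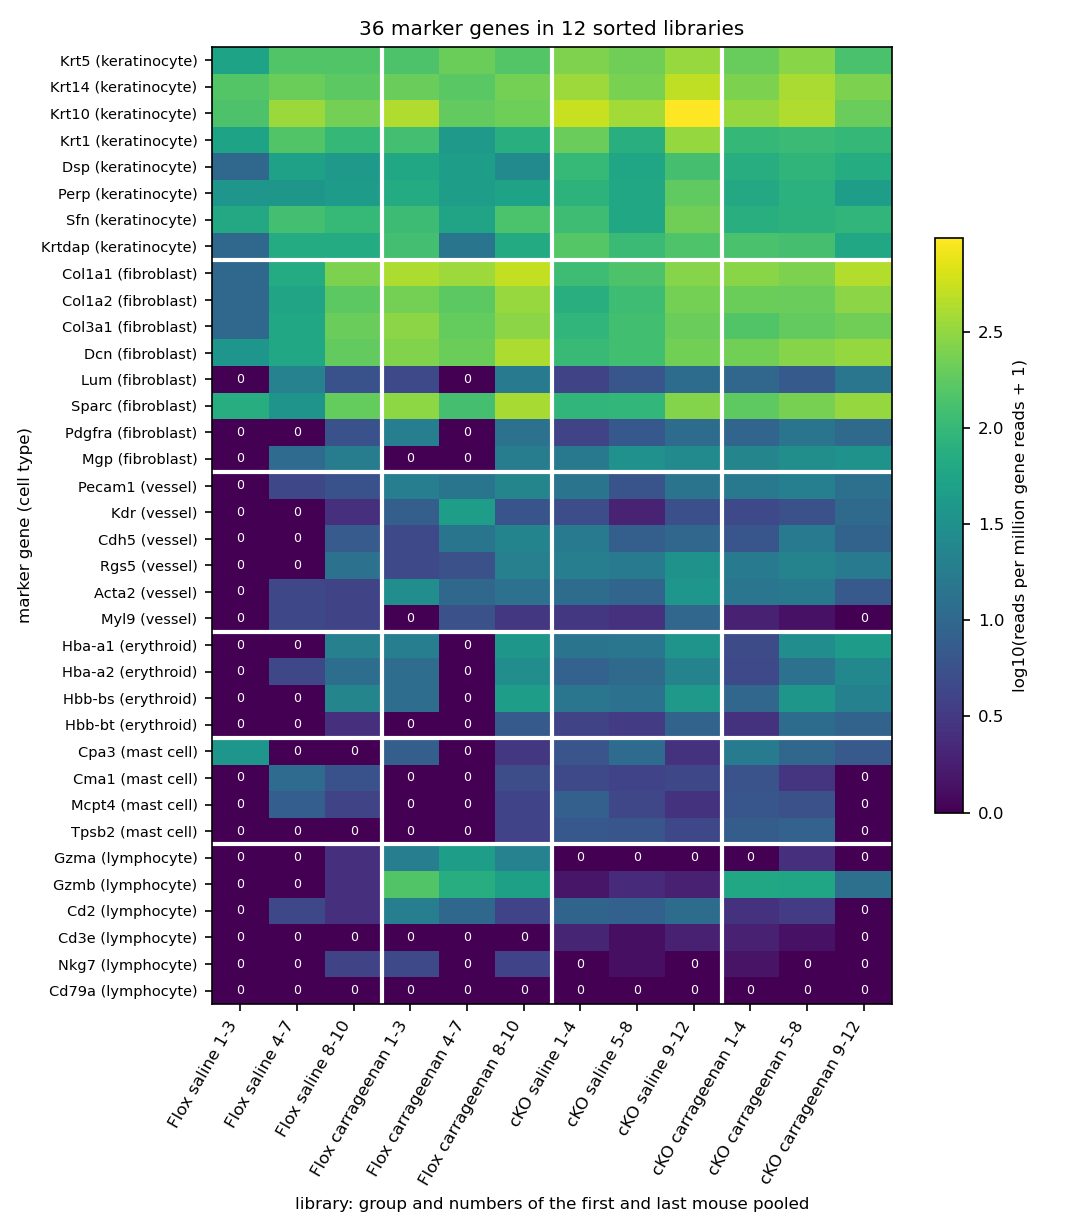
Heat map of the 36 markers (rows, grouped by cell type) in the 12 libraries (columns, by group and pool), with colour for log10(rpm + 1) and 0 where no read was found. The keratinocyte rows are filled in every library, and most empty cells lie in Flox saline 1-3, Flox saline 4-7 and Flox carrageenan 4-7.

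Keratinocyte markers were the most constant group, with all 8 genes read in all 12 libraries. Their summed level was 518, 1127 and 896 in Flox saline, 1258, 757 and 956 in Flox carrageenan, 1816, 1190.2 and 2797 in cKO saline and 1210.4, 1603 and 946 in cKO carrageenan rpm. It varied 5.40-fold between the lowest library, Flox saline 1-3, and the highest, cKO saline 9-12. The mean was 847 ± 307 rpm in Flox saline, 990.5 ± 252 in Flox carrageenan, 1934 ± 810 in cKO saline and 1253 ± 331 in cKO carrageenan (SD, n = 3). All 3 cKO saline libraries lay above all 3 Flox saline libraries in this sum, and the other pairs of groups that share a genotype or a treatment overlapped.

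**Figure D2:**
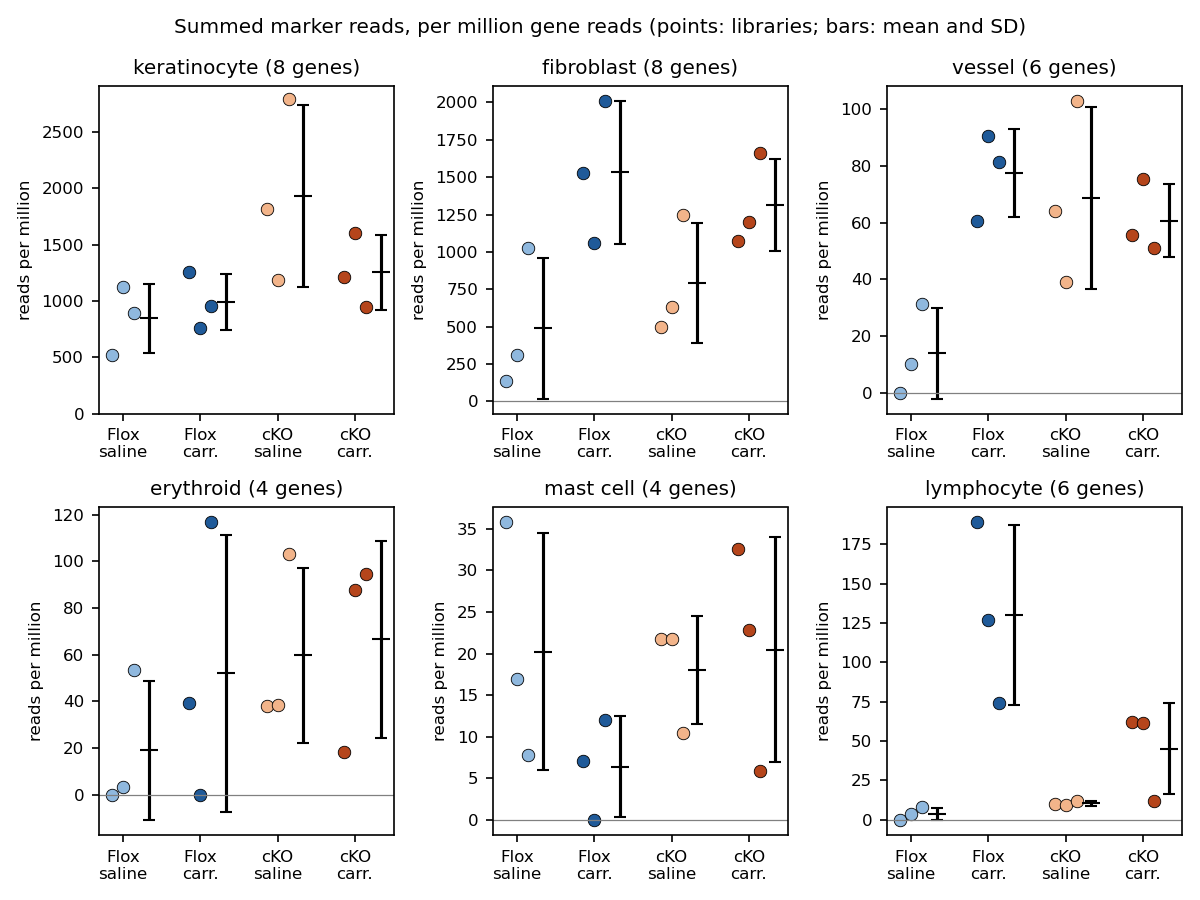
Summed level in rpm (vertical axes, linear) of each marker list in the 4 groups, with a point for each library and a bar for the mean ± SD of 3. Fibroblast, vessel and lymphocyte sums of Flox carrageenan lie above those of Flox saline in every library, and the keratinocyte sums of these groups overlap.

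Krt5 and Krt14 pair to form the keratin filaments of the basal layer. Krt5 was 53.6, 149 and 149 in Flox saline, 143, 204 and 155 in Flox carrageenan, 259, 215 and 335 in cKO saline and 196, 288 and 136 in cKO carrageenan rpm. Krt14 was 152, 207 and 169 in Flox saline, 199.6, 168 and 232 in Flox carrageenan, 356, 240.4 and 500.2 in cKO saline and 250.1, 407 and 249.8 in cKO carrageenan rpm. Both were higher in every cKO saline library than in any Flox saline library, and Krt14 was also higher in each cKO carrageenan library than in any Flox carrageenan library. Krt10 and Krt1 pair in the layers above. Krt10 was 143, 343 and 231 in Flox saline, 428, 186 and 210.2 in Flox carrageenan, 547, 378 and 972 in cKO saline and 324, 424 and 201 in cKO carrageenan rpm. Krt1 was 53.6, 149 and 95.7 in Flox saline, 125, 40.8 and 76.4 in Flox carrageenan, 199, 73.3 and 324 in cKO saline and 95.5, 107 and 96.4 in cKO carrageenan rpm. Krt10 separated the genotypes in saline in the same way, while Krt1 overlapped in every comparison. The reads of Krt10 over those of Krt14, a suprabasal against a basal keratin, ranged from 0.803 in cKO carrageenan 9-12 to 2.14 in Flox carrageenan 1-3.

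Dsp (desmoplakin) anchors keratin filaments to desmosomes, and Perp is a desmosomal membrane protein. Dsp was 8.93, 50.9 and 40.8 in Flox saline, 60.6, 45.4 and 25.1 in Flox carrageenan, 98.4, 55.9 and 127 in cKO saline and 71.3, 89.8 and 68.8 in cKO carrageenan rpm. Perp was 35.7, 37.3 and 43.9 in Flox saline, 67.7, 45.4 and 53.3 in Flox carrageenan, 84.9, 58.6 and 179 in cKO saline and 63.0, 79.2 and 45.2 in cKO carrageenan rpm. Dsp lay higher in cKO than in Flox libraries in both treatments without overlap. Perp did so in saline, and in Flox it was also higher in each carrageenan than in each saline library. Sfn (stratifin, 14-3-3 sigma) is an epithelial adaptor protein and Krtdap a keratinocyte differentiation-associated protein. Sfn was 62.5, 122 and 98.9 in Flox saline, 111, 54.4 and 137 in Flox carrageenan, 113, 60.6 and 216 in cKO saline and 74.8, 83.0 and 90.5 in cKO carrageenan rpm, and its groups overlapped in all comparisons. Krtdap was 8.93, 67.9 and 67.5 in Flox saline, 125, 13.6 and 66.4 in Flox carrageenan, 158, 108 and 145 in cKO saline and 136, 125 and 59.0 in cKO carrageenan rpm, with higher values in all cKO saline than in all Flox saline libraries.

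Basal and suprabasal keratins led the keratinocyte reads in every library. Krt10 held 21.2 to 34.7% of the 8 genes' reads, Krt14 15.9 to 29.3% and Krt5 10.3 to 26.9%. Sfn held 5.09 to 14.3%, Krt1 5.39 to 13.3%, Krtdap 1.72 to 11.2%, Dsp 1.72 to 7.28% and Perp 3.31 to 6.90%. The smallest shares of Dsp and Krtdap came from the 58 keratinocyte reads of Flox saline 1-3.

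**Figure D3:**
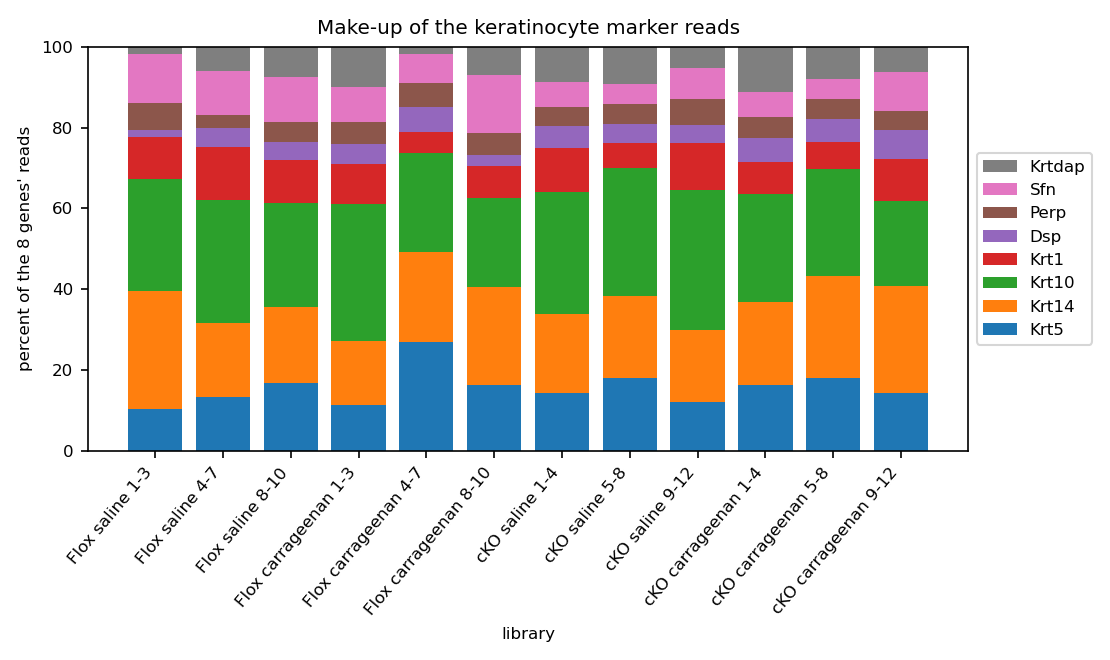
Stacked bars of the percent of keratinocyte marker reads (vertical axis) held by each of the 8 genes in each library (horizontal axis). Krt10, Krt14 and Krt5 form the largest part of each bar, and Krt10 alone 21.2 to 34.7%.

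Fibroblast markers had their highest levels after carrageenan in Flox. The summed level was 134, 309 and 1023 in Flox saline, 1529, 1057 and 2011 in Flox carrageenan, 496, 631 and 1249 in cKO saline and 1076, 1201 and 1660.1 in cKO carrageenan rpm, a 15.0-fold range. The mean was 489 ± 471 rpm in Flox saline and 1532 ± 477 in Flox carrageenan, and 792 ± 402 in cKO saline and 1312 ± 308 in cKO carrageenan (SD, n = 3). In Flox the 2 treatments did not overlap. In cKO they did, through cKO saline 9-12 at 1249 rpm. In cKO, libraries of the same pool number deviated together, although 1 pair of unlike pools did so more than 1 same-number pair. Within pools the cKO sum was higher after carrageenan in 3 of 3, as were Col1a1, Col1a2, Col3a1, Dcn, Lum and Sparc. For Dcn, whose cKO treatments did not overlap, any pairing of libraries gives this count. The Flox sum was higher in 3 of 3 pools too, which likewise follows from the lack of overlap. Flox libraries of the same pool number did not deviate together. None of the 8 genes passed in cKO with the pool as a block either, with adjusted p of 0.129 for Sparc, 0.137 for Dcn and 0.619 for Col1a1 (limma). Keratinocyte reads over fibroblast reads ranged from 0.876 to 3.87 in saline and from 0.475 to 1.34 in carrageenan libraries, and overlapped.

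Col1a1, Col1a2 and Col3a1 encode the chains of the fibrillar collagens types I and III. Col1a1 was 8.93, 67.9 and 251 in Flox saline, 421, 358 and 515 in Flox carrageenan, 114, 139.9 and 281 in cKO saline and 284, 251 and 443 in cKO carrageenan rpm. Col1a2 was 8.93, 54.3 and 171 in Flox saline, 228, 172 and 337 in Flox carrageenan, 73.5, 114 and 228 in cKO saline and 206, 199 and 295 in cKO carrageenan rpm. Col3a1 was 8.93, 61.1 and 199 in Flox saline, 296, 191 and 297 in Flox carrageenan, 90.6, 119 and 199 in cKO saline and 149, 186 and 220.3 in cKO carrageenan rpm. The 3 collagens were lowest in Flox saline 1-3, each with a single read. The Flox treatments did not overlap for Col1a1 and Col1a2, and for Col3a1 they did, through Flox saline 8-10 and Flox carrageenan 4-7. Col1a1 (ENSMUSG00000001506, chr11:94936224-94953042 on GRCm38) rose with carrageenan in Flox by 3.08 ± 0.79 on the log2 scale (SE, limma adjusted p = 0.0300). The same contrast in cKO was 1.09 ± 0.79 (limma adjusted p = 0.819). In Flox, Col1a2 was 2.52 ± 0.74 (limma adjusted p = 0.0532) and Col3a1 2.50 ± 0.74 (limma adjusted p = 0.0546), and neither passed the threshold of 0.05.

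Dcn (decorin) and Lum (lumican) are small proteoglycans that bind collagen fibrils, and Sparc is a matricellular glycoprotein. Dcn was 35.7, 61.1 and 187 in Flox saline, 260.2, 209 and 421 in Flox carrageenan, 105, 121 and 221 in cKO saline and 222, 279.8 and 323 in cKO carrageenan rpm. Sparc was 71.5, 34.0 and 188 in Flox saline, 303, 127 and 395 in Flox carrageenan, 91.6, 93.4 and 273 in cKO saline and 175, 237 and 323 in cKO carrageenan rpm. Dcn was higher in each carrageenan library than in each saline library of the same genotype, while Sparc overlapped in both. Dcn (ENSMUSG00000019929, chr10:97479609-97518143) rose in Flox by 2.07 ± 0.50 on the log2 scale (SE, limma adjusted p = 0.0216), and its value in cKO was 1.10 ± 0.50 (limma adjusted p = 0.424). Sparc was 1.83 ± 0.58 in Flox (limma adjusted p = 0.0708). Lum was 0, 20.4 and 4.71 in Flox saline, 3.56, 0 and 16.1 in Flox carrageenan, 3.11, 5.36 and 10.5 in cKO saline and 8.81, 6.09 and 13.8 in cKO carrageenan rpm, and its groups overlapped throughout.

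Pdgfra, a receptor for platelet-derived growth factor on fibroblasts, was 0, 0 and 4.71 in Flox saline, 17.8, 0 and 12.1 in Flox carrageenan, 3.11, 5.69 and 10.5 in cKO saline and 8.37, 12.9 and 9.83 in cKO carrageenan rpm. It had 3 reads in Flox saline and 17 in Flox carrageenan, a ratio of 3.96 with a 95% exact interval of 1.14 to 21.1 that covers counting error only. Mgp, the matrix Gla protein that limits calcification, was 0, 10.2 and 17.3 in Flox saline, 0, 0 and 17.1 in Flox carrageenan, 15.0, 31.8 and 26.2 in cKO saline and 22.0, 29.3 and 33.4 in cKO carrageenan rpm. It was the fibroblast marker with a higher level in each cKO carrageenan than in each Flox carrageenan library, and 2 of the Flox carrageenan libraries had no read of it. Its difference was 3.21 ± 0.98 on the log2 scale (SE, limma adjusted p = 0.497).

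Without Flox saline 4-7, Flox carrageenan 1-3 or Flox carrageenan 8-10, left out in turn, neither Col1a1 nor Dcn passed, and Col1a1 did not pass without Flox carrageenan 4-7 either. The adjusted p with 1 library left out reached 0.0873 for Col1a1 and 0.0796 for Dcn. The log2 change ran from 1.81 without Flox saline 1-3 to 4.17 without Flox saline 8-10 for Col1a1, and from 1.51 to 2.75 without the same libraries for Dcn.

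Vessel markers were near the floor in Flox saline and readable elsewhere. Their sum was 0, 10.2 and 31.4 in Flox saline, 60.6, 90.7 and 81.5 in Flox carrageenan, 64.2, 39.2 and 103 in cKO saline and 55.5, 75.4 and 51.1 in cKO carrageenan rpm. Flox carrageenan lay above Flox saline in every library, with means of 77.6 ± 15.4 and 13.9 ± 16.0 rpm (SD, n = 3). The cKO means were 68.8 ± 32.2 rpm in saline and 60.7 ± 12.9 in carrageenan, and these overlapped. The 0 reads of Flox saline 1-3 allow up to 26.8 rpm.

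Pecam1 (CD31) is an adhesion molecule of endothelial junctions that leukocytes and platelets carry too. Kdr is the main VEGF receptor of endothelium, and Cdh5 (VE-cadherin) holds its junctions. Pecam1 was 0, 3.40 and 4.71 in Flox saline, 17.8, 13.6 and 22.1 in Flox carrageenan, 12.9, 5.02 and 13.1 in cKO saline and 15.0, 18.3 and 11.8 in cKO carrageenan rpm. Kdr was 0, 0 and 1.57 in Flox saline, 7.13, 45.4 and 5.03 in Flox carrageenan, 4.14, 1.00 and 4.36 in cKO saline and 3.52, 4.57 and 9.83 in cKO carrageenan rpm. Cdh5 was 0, 0 and 6.28 in Flox saline, 3.56, 13.6 and 21.1 in Flox carrageenan, 16.6, 7.03 and 8.73 in cKO saline and 5.28, 16.4 and 7.87 in cKO carrageenan rpm. The observed levels of Pecam1 and Kdr were higher in each Flox carrageenan library than in each Flox saline library. Both had 0 reads in Flox saline 1-3, which allows up to 26.8 rpm. That floor lies above all these Flox carrageenan values but the 45.4 rpm of Kdr. Kdr reached 45.4 rpm in Flox carrageenan 4-7, from 10 of its 59 reads in all. Pecam1 (ENSMUSG00000020717, chr11:106654217-106750628) rose in Flox by 2.54 ± 0.68 on the log2 scale (SE, limma adjusted p = 0.0365) and Kdr (ENSMUSG00000062960, chr5:75932827-75978458) by 2.99 ± 0.81 (SE, limma adjusted p = 0.0388). In cKO the values were 0.71 ± 0.68 and 0.84 ± 0.81 (limma adjusted p = 0.936 for both). Kdr had 1 read in Flox saline and 17 in Flox carrageenan, a ratio of 11.9 (95% exact interval 1.86 to 496).

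Both vessel calls were fragile. Pecam1 did not pass with 8 of the 12 libraries left out in turn, which were the 3 Flox carrageenan and 3 cKO saline libraries and cKO carrageenan 1-4 and 5-8. Its adjusted p reached 0.0928. Kdr did not pass without Flox saline 1-3 or 4-7, without any cKO saline library, or without cKO carrageenan 1-4 or 5-8, with an adjusted p of up to 0.0926. In 3 further omissions it failed the filter on low values. With edgeR on recovered reads Pecam1 had an adjusted p of 0.0711, and with DESeq2 Pecam1 had 0.0822 and Kdr 0.0553.

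Rgs5 and Acta2 (smooth muscle actin) mark pericytes and smooth muscle, and Myl9 is a contractile light chain. Rgs5 was 0, 0 and 12.6 in Flox saline, 3.56, 4.54 and 19.1 in Flox carrageenan, 18.1, 16.1 and 32.3 in cKO saline and 16.7, 20.6 and 15.7 in cKO carrageenan rpm. Acta2 was 0, 3.40 and 3.14 in Flox saline, 28.5, 9.07 and 12.1 in Flox carrageenan, 10.4, 8.37 and 35.8 in cKO saline and 14.1, 15.2 and 5.90 in cKO carrageenan rpm. The observed levels of Rgs5, Acta2, Cdh5 and Pecam1 were higher in each cKO saline library than in each Flox saline library. Each had 0 reads in Flox saline 1-3, which allows up to 26.8 rpm. Of their cKO saline values, only those of Rgs5 and Acta2 in cKO saline 9-12 lie above that floor. A separation of the genotypes is therefore not shown for these genes. In observed levels Acta2 separated the Flox treatments too, with the same limit from Flox saline 1-3. Its value was 2.45 ± 0.76 on the log2 scale (SE, limma adjusted p = 0.0668). Myl9 had 28 reads in all, 19 of them in cKO saline and 3 in cKO carrageenan, a ratio of carrageenan to saline of 0.177 (95% exact interval 0.0336 to 0.602).

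Globin reads, a mark of red cell RNA, varied widely between the libraries of each group. Their sum was 0, 3.40 and 53.4 in Flox saline, 39.2, 0 and 117 in Flox carrageenan, 37.8, 38.5 and 103 in cKO saline and 18.1, 87.5 and 94.4 in cKO carrageenan rpm. Flox carrageenan 4-7 had no globin read, which allows up to 13.6 rpm, while Flox carrageenan 8-10 had the highest sum of all. Hba-a1 was 0, 0 and 18.8 in Flox saline, 17.8, 0 and 37.2 in Flox carrageenan, 12.9, 14.1 and 34.0 in cKO saline and 3.96, 27.8 and 43.3 in cKO carrageenan rpm. Hba-a2 was 0, 3.40 and 11.0 in Flox saline, 10.7, 0 and 28.2 in Flox carrageenan, 7.77, 9.71 and 20.9 in cKO saline and 3.52, 12.2 and 23.6 in cKO carrageenan rpm. Hbb-bs was 0, 0 and 22.0 in Flox saline, 10.7, 0 and 45.3 in Flox carrageenan, 14.0, 12.4 and 40.2 in cKO saline and 8.81, 37.3 and 19.7 in cKO carrageenan rpm. Alpha and beta globin were both read in the libraries with most globin reads: 105 and 125 reads in cKO carrageenan 5-8, 71 and 44 in cKO saline 5-8, 65 and 51 in Flox carrageenan 8-10, and 63 and 55 in cKO saline 9-12. Hbb-bt had 64 reads, with none in 4 of the 6 Flox saline and carrageenan libraries. None of the 4 genes passed the test in any comparison.

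Mast cell markers had the fewest reads of the 6 groups, 284 in all. Their sum was 35.7, 17.0 and 7.85 in Flox saline, 7.13, 0 and 12.1 in Flox carrageenan, 21.7, 21.8 and 10.5 in cKO saline and 32.6, 22.8 and 5.90 in cKO carrageenan rpm. Cpa3 (mast cell carboxypeptidase A) was 35.7, 0 and 0 in Flox saline, 7.13, 0 and 2.01 in Flox carrageenan, 5.18, 10.0 and 1.75 in cKO saline and 15.9, 8.75 and 5.90 in cKO carrageenan rpm, and its highest value came from 4 reads in Flox saline 1-3. Chymases Cma1 and Mcpt4 had 46 and 57 reads in all, and the tryptase Tpsb2 had 69. Tpsb2 had 0 reads in Flox saline and 31 in cKO saline, 1.78-fold against 3 reads over the Flox saline group. That value leaves out the counting error of the 31 reads, so it is not a lower bound. Of the 4 genes, Cpa3 was the one with enough reads to be tested for a carrageenan effect, and it did not pass in Flox (-0.19 ± 1.11, limma adjusted p = 0.937) or in cKO (0.94 ± 1.11, limma adjusted p = 0.964).

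Among lymphocyte markers, those that rose with carrageenan were the granzymes. The sum was 0, 3.40 and 7.85 in Flox saline, 189, 127 and 74.4 in Flox carrageenan, 9.84, 9.37 and 12.2 in cKO saline and 62.1, 61.7 and 11.8 in cKO carrageenan rpm. Every Flox carrageenan library lay above every Flox saline library, with means of 130.1 ± 57.3 and 3.75 ± 3.94 rpm (SD, n = 3). In cKO the means were 45.2 ± 28.9 and 10.5 ± 1.53 rpm, and cKO carrageenan 9-12, at 11.8 rpm, lay within the saline range.

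Gzmb (granzyme B), a serine protease of cytotoxic granules, held 404 of the 531 lymphocyte reads. It was 0, 0 and 1.57 in Flox saline, 149.7, 72.6 and 48.3 in Flox carrageenan, 0.518, 1.34 and 0.873 in cKO saline and 59.0, 57.5 and 11.8 in cKO carrageenan rpm. All carrageenan libraries were above all saline libraries in both genotypes, and cKO carrageenan 9-12 was the lowest of the 6. Gzmb (ENSMUSG00000015437, chr14:56258838-56262260) rose in Flox by 5.59 ± 0.74 on the log2 scale (SE, limma adjusted p = 0.000866), from 1 read to 106, a ratio of 74.0 (95% exact interval 13.0 to 2949.8). It rose in cKO by 4.11 ± 0.74 (SE, limma adjusted p = 0.00815), from 6 reads to 291. In both genotypes Gzmb reached the filter value in carrageenan libraries only, so the filter favoured a difference. The Flox call held with each library left out, whereas the cKO call ended without cKO saline 1-4 (adjusted p = 0.0528) or cKO carrageenan 5-8 (adjusted p = 0.0650). For the same contrasts on recovered reads, edgeR gave Gzmb an adjusted p of 0.000298 in Flox and 1.15e-05 in cKO. The difference between the genotypes was -1.49 ± 1.05 (limma adjusted p = 0.967).

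Gzma (granzyme A), a granule protease with a different cleavage preference, was 0, 0 and 1.57 in Flox saline, 17.8, 45.4 and 20.1 in Flox carrageenan, 0, 0 and 0 in cKO saline and 0, 1.52 and 0 in cKO carrageenan rpm. It was read in all Flox carrageenan libraries, and in cKO in 1 library only, cKO carrageenan 5-8. Gzma (ENSMUSG00000023132, chr13:113093825-113100981) rose in Flox by 3.97 ± 0.66 on the log2 scale (SE, limma adjusted p = 0.00287), from 1 read to 35, a ratio of 24.4 (95% exact interval 4.11 to 992). It entered the test through the Flox carrageenan libraries alone, so the filter favoured a difference, and without the filter its adjusted p was 0.00987 (limma). The cKO value was 0.38 ± 0.66 (limma adjusted p = 0.997), with 0 reads in saline and 4 in carrageenan. Against 3 reads over the cKO saline group, the 4 reads are 1.50-fold. That value leaves out the counting error of the 4 reads, so it is not a lower bound and shows no rise. In carrageenan, Gzma was lower in each cKO library than in each Flox library (-3.90 ± 0.79, limma adjusted p = 0.497). This became a call without cKO carrageenan 9-12, at -3.72 with an adjusted p of 0.0390, where 420 of all genes passed. Here too Gzma passed the filter through the Flox carrageenan libraries alone, and that call is given as a description. In the authors' deposited table this contrast has a log2 fold change of -2.28 with a p-value of 5.49e-07 and no adjusted p. The difference of the genotype effects was -3.54 ± 0.92 (limma adjusted p = 0.967) and did not pass.

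The other lymphocyte markers did not pass the test or had too few reads for it. Cd2, an adhesion receptor of T and natural killer cells, had 72 reads, with 2, 10, 50 and 10 reads in Flox saline, Flox carrageenan, cKO saline and cKO carrageenan. In Flox its mean was 1.65 ± 1.70 rpm in saline and 9.97 ± 7.44 in carrageenan (SD, n = 3), with overlap, and its log2 change 1.90 ± 0.75 (limma adjusted p = 0.145). In cKO its level was lower in each carrageenan library than in any saline library, without passing the test (-1.90 ± 0.75, limma adjusted p = 0.294). Cd3e, a chain of the T cell receptor complex, had 7 reads in all, and the granule protein Nkg7 had 8, 6 of them in Flox. Cd79a had none, which allows up to 2.87, 2.01, 0.495 and 0.555 rpm over Flox saline, Flox carrageenan, cKO saline and cKO carrageenan.

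Tested with limma for a carrageenan effect, 29 of the 36 members passed the filter on low values, and 7 (Myl9, Cma1, Mcpt4, Tpsb2, Cd3e, Nkg7, Cd79a) did not. In Flox 6 members rose (Gzmb, Gzma, Dcn, Col1a1, Pecam1, Kdr) and none fell, beside 453 higher genes (4.42% of 10240) and 281 lower genes (2.74%), 7.17% in all. The median log2 change of the 29 was 1.56, against 0.10 over all genes tested, with 25 above 0 and 4 below. In 8 of the 29 (Pdgfra, Pecam1, Kdr, Cdh5, Acta2, Gzma, Gzmb, Cd2), values of 5 or more within the Flox groups occurred only in the higher group, so the filter favoured a difference there, and these counts are a description. Without overlap, 9 of the 29 were higher in carrageenan (all genes 10.2%) and 0 lower (all genes 12.8%). With edgeR 4 members passed and with DESeq2 5. The count with a single library left out ran from 1 (without Flox carrageenan 1-3) to 11 (without Flox saline 8-10). It was 2 without Flox carrageenan 4-7 or 8-10, 3 without Flox saline 4-7, and 5 without both Flox saline 1-3 and cKO carrageenan 9-12.

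In cKO, 1 of the 29 members rose, Gzmb, and none fell, beside 215 higher genes (2.1%) and 56 lower genes (0.547%), 2.65% in all. The median change of the 29 was 0.12, against -0.07 over all genes, with 16 above 0 and 13 below. In 3 of the 29 (Kdr, Gzmb, Cd2), values of 5 or more within the cKO groups occurred only in the higher group. The filter favoured a difference there, and these counts are a description. Without overlap, 2 of the 29 were higher, Dcn and Gzmb (all genes 9.3%), and 1 lower, Cd2 (all genes 22.7%). The 8 keratinocyte markers had a median of 0.48 in Flox and -0.29 in cKO, and none passed in either. The 8 fibroblast markers had 1.95 and 0.91, and the 5 tested vessel markers 2.45 and -0.02.

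**Figure D4:**
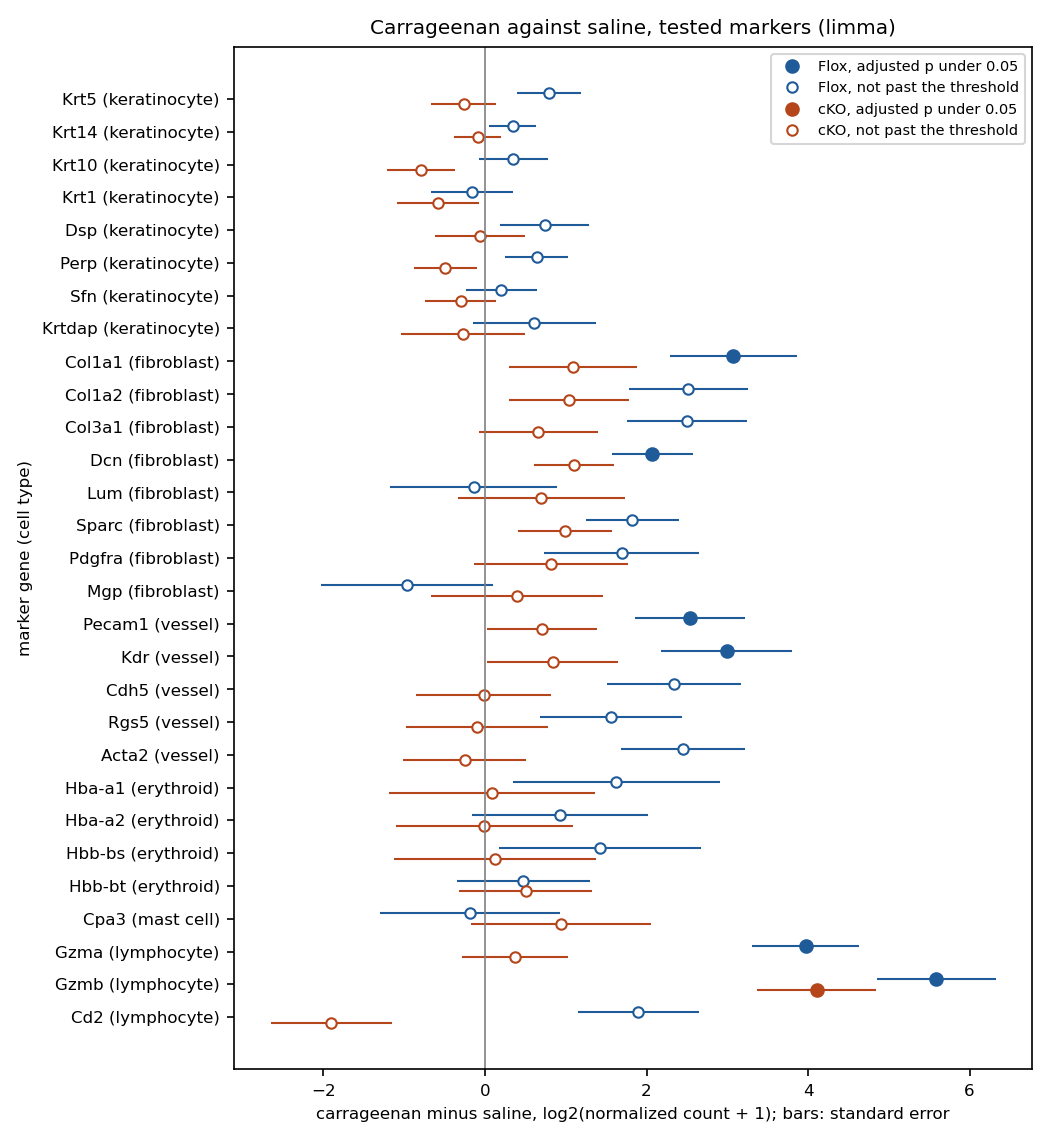
Change with carrageenan on the log2(normalized count + 1) scale (horizontal axis, bars of 1 standard error) for the 29 tested markers (vertical axis), in Flox (blue) and cKO (orange), with filled points past the limma threshold. In Flox 6 points are filled and in cKO 1, and most fibroblast and vessel points of Flox lie to the right of those of cKO.

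Whether the carrageenan effect differed between the genotypes was tested directly, and it did not pass for any member (0 of 10243 genes, 0%, by limma, with 244 at an unadjusted p under 0.05). edgeR and DESeq2 also called 0 genes. The unadjusted p was under 0.05 for Gzma, Cd2 and Acta2, whose differences were -3.54 ± 0.92, -3.81 ± 1.06 and -2.73 ± 1.08 on the log2 scale.

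For cKO against Flox in saline, limma called 0 of 9371 genes (0%), and 508 had an unadjusted p under 0.05. edgeR called 0 and DESeq2 20, no member among them. Of the 36 members, 30 had a higher mean rpm in cKO, 5 a lower one and 1 was equal. Of the 21 tested, all had a fitted difference above 0, with a median of 1.61 against 0.25 over all genes, and 9 had an unadjusted p under 0.05. Their smallest adjusted p was 0.683. Without overlap, 10 of the 21 were higher in cKO (all genes 8.76%) and 0 lower (all genes 6.19%). For 3 of the 21 (Cdh5, Acta2, Cd2), all among those 10, values of 5 or more occurred only in cKO saline. The filter favoured a difference there, and these counts are a description. Among keratinocyte genes, Krt14 differed by 1.09 ± 0.31, Krt5 by 1.41 ± 0.46, Krt10 by 1.47 ± 0.44 and Krtdap by 1.99 ± 0.73 on the log2 scale. Rgs5 had 2.93 ± 1.04. The cKO saline libraries were also the deeper ones, at 1145606 to 2987015 gene reads against 111925 to 637238, so that depth and genotype cannot be told apart here. Without Flox saline 1-3 the limma counts stayed at 0.

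In carrageenan, cKO against Flox gave 0 of 9151 genes (0%) by limma, 897 with an unadjusted p under 0.05, 0 by edgeR and 12 by DESeq2. Of 27 tested members 18 were above 0 and 9 below, with a median of 0.31 against 0.09 over all genes. Without overlap, 3 were higher in cKO, Krt14, Dsp and Mgp (all genes 6.83%), and 1 lower, Gzma (all genes 7.63%). Krt14 differed by 0.64 ± 0.27 and Dsp by 0.93 ± 0.36, both with a limma adjusted p of 0.497. In the authors' deposited tables of cKO against Flox, 14 members have an adjusted p in each treatment and 0 are under 0.05. The other 22, Gzma among them, have none. The smallest in the authors' deposited table is 0.171 for Krt10 in saline and 0.418 for Dsp in carrageenan.

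Fabp5, the targeted gene, encodes the epidermal fatty acid-binding protein and is abundant in keratinocytes as well as macrophages. It was 8.93, 50.9 and 33.0 in Flox saline, 60.6, 132 and 45.3 in Flox carrageenan, 9.32, 5.36 and 16.6 in cKO saline and 7.93, 14.8 and 29.5 in cKO carrageenan rpm. In saline and in carrageenan the Flox mean was above the cKO mean, 30.9 ± 21.1 against 10.4 ± 5.69 and 79.1 ± 46.0 against 17.4 ± 11.0 rpm (SD, n = 3), and the groups overlapped in saline. By limma the difference of cKO from Flox was -1.20 in saline and -2.06 in carrageenan on the log2 scale, and neither passed. The authors' deposited tables give Fabp5 an adjusted p of 0.516 in saline and 0.0997 in carrageenan. Per 100 keratinocyte reads, Fabp5 had 1.72 to 17.4 reads in Flox and 0.450 to 3.12 in cKO libraries. The 2 ranges overlapped through Flox saline 1-3, with 1 Fabp5 read, and cKO carrageenan 9-12. Whether keratinocyte RNA contributed to the Fabp5 reads left in cKO was not tested.

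**Figure D5:**
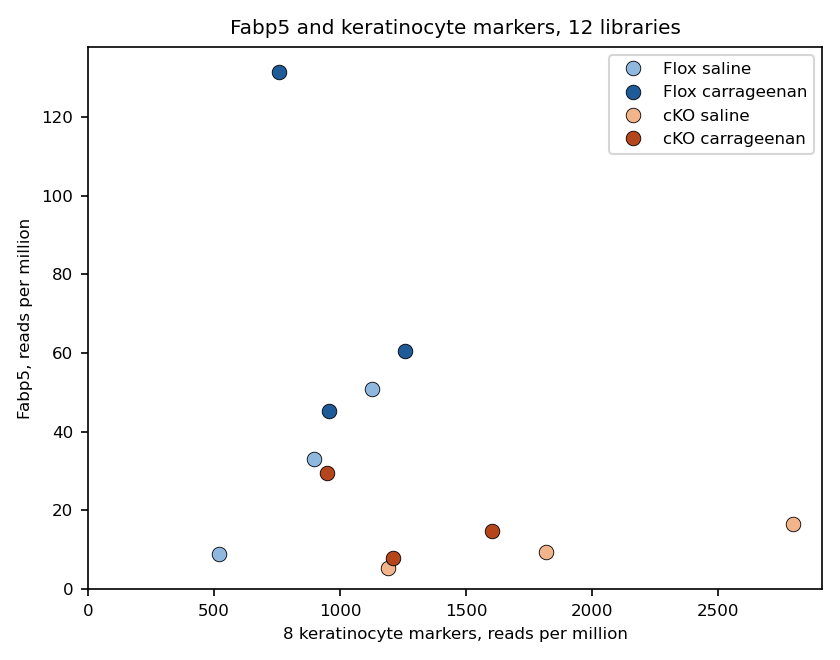
Fabp5 (vertical axis) against the sum of 8 keratinocyte markers (horizontal axis), both in rpm, with a point for each of the 12 libraries coloured by group. The highest keratinocyte sums are those of cKO saline 9-12 and 1-4, 2797 and 1816 rpm, while cKO saline 5-8, at 1190.2 rpm, lies among other groups. Fabp5 is at 5.36 to 16.6 rpm in the cKO saline libraries.

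Further genes, 127 in 9 lists, were read beside the members, for the same cell types and others such as nerve, fat, muscle and platelets. Some of them are made by macrophages too, as stated below, so not every list measures RNA from outside the gate. Beside the counts of these lists, 4.42% of all genes tested rose and 2.74% fell in Flox. In cKO 2.1% rose and 0.547% fell. Which of the further genes passed the filter through 1 group alone was not worked out, so the counts are a description. Of 20 further keratinocyte genes, 16 were tested for a carrageenan effect and 1 rose in Flox, the wound keratin Krt16 (3.61 ± 0.77 on the log2 scale, limma adjusted p = 0.0114). None passed in cKO. Krt2 and Lgals7 had most reads, 5717 and 2652. Of 20 further fibroblast genes, 18 were tested and 3 rose in Flox: Pdpn (2.56 ± 0.47, adjusted p = 0.00514), Col6a2 (3.55 ± 0.91, adjusted p = 0.0301) and Fstl1 (3.13 ± 0.89, adjusted p = 0.0477), all by limma. Pdpn (podoplanin), which inflammatory macrophages can carry, was the one that also rose in cKO (1.90 ± 0.47, limma adjusted p = 0.0447).

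Of 16 further endothelial genes 10 were tested, and in Flox 3 rose (all genes 4.42%) and 2 fell (all genes 2.74%). Flt1, a VEGF receptor that monocytes also carry, rose by 3.60 ± 0.73 on the log2 scale (limma adjusted p = 0.00907). Esam, a junction molecule, rose by 3.28 ± 0.72 (limma adjusted p = 0.0134) and Selp (P-selectin) by 3.17 ± 0.88 (limma adjusted p = 0.0417). Lyve1 and Aqp1, which resident macrophages express too, fell, with -2.49 ± 0.45 and -1.24 ± 0.32 (limma adjusted p = 0.00460 and 0.0296). They held 13572 and 19158 of the list's 34540 reads, and the list's sum was 2651 ± 209 rpm in Flox saline and 1032 ± 316 in Flox carrageenan (SD, n = 3), the opposite order to the 6 vessel members. Pf4, in the list of red cell and platelet genes but also made by resident macrophages, held 99.3% of that list's reads and fell in Flox (-1.76 ± 0.45, limma adjusted p = 0.0305).

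Of 8 further mast cell and basophil genes 2 were tested, and Hdc, the enzyme that makes histamine, rose in both genotypes (3.38 ± 0.45 in Flox and 4.61 ± 0.45 in cKO on the log2 scale, limma adjusted p = 0.000907 and 0.000103). The 4 mast cell members summed to 6.40 ± 6.07 rpm in Flox carrageenan and 20.2 ± 14.2 in Flox saline, and to 20.4 ± 13.5 in cKO carrageenan and 18.0 ± 6.51 in cKO saline (SD, n = 3), with overlap in both genotypes. Of 20 further T and natural killer cell genes 6 were tested, and the chemokine Ccl5, which macrophages also make, rose in both (5.21 ± 0.41 and 4.60 ± 0.41, limma adjusted p = 2.64e-05 and 6.89e-05). Of 10 further B and plasma cell genes 2 were tested, and Ighm, the immunoglobulin M heavy chain, fell in cKO (-2.09 ± 0.37, limma adjusted p = 0.00731). It was -1.16 ± 0.37 in Flox (limma adjusted p = 0.0733). In the mural and muscle list 3 of 13 genes were tested and in the nerve and fat list 2 of 10, and none passed in either genotype.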

How the data were processed

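Normalized counts from 12 libraries of sorted paw cells were used. Per the labels, RNA was made into 3' mRNA libraries with unique molecular identifiers. Per the submitters' processing notes, cutadapt, STAR and GRCm38 were used, and the name of the read counter is not given in the sources used here. Deposited by the authors was a normalized count signal per gene and library, with saline and carrageenan normalized separately. The authors' other deposited tables give log2 fold changes, a score (the test statistic), p-values and adjusted p-values of cKO against Flox.

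Whole reads were recovered, since 100% of values were whole multiples of 1 step per library (tolerance 0.001 reads). Levels are reads per 1000000 reads (rpm) on 55401 gene IDs (55141 matched to a symbol), which leaves out 121 rows that are not genes (0.170 to 2.23% of reads). Tests used limma 3.58.1 in R 4.3.3 with a mean trend on log2(normalized count + 1), on genes that reached 5 in 3 or more libraries, with Benjamini-Hochberg adjusted p under 0.05 over all genes tested. A fold change on this scale depends on the added 1 in low genes. Carrageenan was compared with saline over all 12 libraries on 1 scale (medians of ratios over 6501 genes), and genotypes within each deposited table, with the difference of effects fitted on the deposited scale. Alternatives were edgeR 4.0.16 and DESeq2 1.42.0 on recovered reads, a pseudocount of 5, no filter, the deposited scales, the pool of mice as a replicate block, and each library left out. The script was tested on simulated data. The smallest p of an exact test with 3 against 3 would be above 0.05, so none was run.

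In cKO, saline and carrageenan libraries of the same pool number deviated together (correlations across 10240 genes 0.200, 0.336 and 0.433); in Flox they did not (0.009, -0.018 and 0.109). Whether the same mice gave both is not given in the sources used here. Libraries of a group differed by more than counting error, so none was entered more than once. All 36 members are accounted for, values per library are printed for members with at least 100 reads or past the threshold, and of other lists at most 3 genes with most reads and any past the threshold are named. Members and lists were chosen with earlier results of these data known.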

Additional observations from a re-analysis of the deposited data

How the results depend on the processing

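Direction was kept in all alternatives for the 31 member changes with an unadjusted p under 0.05 (450 alternative values), of which 33 no longer passed and 13 newly passed. Among 104 other member changes, 103 of 1597 alternative values changed sign. For carrageenan against saline in Flox, no filter on low values gave 418 genes and 2 members past the threshold, and leaving out 1 library gave 350 to 1078 genes and 1 to 11 members. In cKO, no filter gave 139 genes, edgeR 714 and DESeq2 852, and leaving out 1 library 84 to 521 genes and 0 or 1 members. Of the calls in cKO, limma had 79.3% higher, edgeR 62.2% and DESeq2 64.2%. For cKO against Flox, DESeq2 called 20 genes in saline and 12 in carrageenan. Leaving out 1 library gave 0 to 420 genes and 0 or 1 members in carrageenan, the 420 without cKO carrageenan 9-12; leaving out Flox saline 1-3 as well, chosen after seeing the data, gave the same 420 and 1. The causes were not tested. The deposited scales moved the median of all genes in cKO from -0.07 to -0.18. With the pool as a replicate block, 736 genes and 7 members passed in Flox, 263 and 1 in cKO and 0 for the difference; Col1a2, Col3a1 and Sparc newly passed in Flox (limma adjusted p = 0.0323, 0.0492 and 0.00778), and Pecam1 and Kdr did not pass in that fit (limma adjusted p = 0.0572 and 0.0573), in a genotype whose pool numbers did not pair. Depth limits vessel, globin, mast cell and lymphocyte markers in Flox saline, where 3 reads are 4.71 to 26.8 rpm. On the common scale by medians of ratios, the sums of the 6 lists moved by less than 1 SD. Runs with 1 library left out, or without globin reads in the total, cannot test this. Omitting 1 of 3 values cannot shift a mean by 1 SD, and globins held at most 0.0117% of the reads of a library.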

Other observations

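Among genes of the gated cells, 4 of 12 myeloid genes changed with carrageenan in Flox (all genes 7.17%), and the median log2 change of the 12 was 0.20. The endotoxin co-receptor Cd14 rose by 1.49 ± 0.36 on the log2 scale (limma adjusted p = 0.0230). Csf1r, the receptor for the macrophage growth factor, was -0.97 ± 0.26 (adjusted p = 0.0352), Adgre1 (F4/80) -0.996 ± 0.26 (adjusted p = 0.0330) and Mrc1 (CD206) -1.47 ± 0.32 (adjusted p = 0.0120), all by limma. None of the 12 passed in cKO.

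Although Ly6g had 4 reads in all, other genes of the neutrophil list rose with carrageenan. S100a9, a calgranulin, rose by 6.14 ± 0.94 in Flox and 3.95 ± 0.94 in cKO (limma adjusted p = 0.00198 and 0.0371). Csf3r, the receptor for granulocyte colony-stimulating factor, rose by 2.65 ± 0.43 and 2.46 ± 0.43 (limma adjusted p = 0.00245 and 0.00640). The iron-sequestering protein Lcn2 rose by 4.75 ± 0.81 and 3.82 ± 0.81 (limma adjusted p = 0.00328 and 0.0205), and S100a8 by 4.77 ± 0.99 in Flox (limma adjusted p = 0.0105). Of the 10 genes of this list, 6 were tested, and 4 rose in Flox (all genes 4.42%) and 3 in cKO (all genes 2.1%). In the genotype comparisons, 2 of the 10 passed the filter among saline libraries and 5 among carrageenan libraries. Genes could thus enter the test through the carrageenan libraries where they were high, and these counts are a description. Monocytes also express several of them. None of 9 dendritic cell genes, 6 of them tested, passed in either genotype.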
